A study of Arabidopsis thaliana with 12 samples.

Results

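In wild-type Arabidopsis seedlings and both transgenic lines measured beside them, 33 probe sets read low in air and higher after 4 h of hypoxia. They were chosen by their values: on the log2 (intensity + 1) scale, the mean of each genotype's 2 air arrays was under 5, and the mean of its 2 hypoxia arrays was at least 2 higher, in all 3 genotypes. Affymetrix control probe sets were not considered, and 17 named genes and probe sets were left out. Of 22746 probe sets, 42 met the thresholds, and 9 of those were among the names left out. Of the 33, 17 were assigned to exactly 1 gene, all protein-coding, and 16 are not listed in the platform table used here, so they are given by probe set identifier with no gene name.

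RNA came from whole Columbia-0 seedlings aged 7 days, grown on medium with 30 mM sucrose, and each array carried 1 labelled replicate. The genotypes were wild type (WT), seedlings carrying HRE1 behind the 35S promoter (HRE1ox), and seedlings carrying HRE2 behind the same promoter (HRE2ox). The 35S promoter drives expression in most tissues, so the transgene is not limited to the cells that normally use it, and how many independent transgenic lines were used is not given in the sources used here. Each genotype stayed in air (21% oxygen) or in hypoxia (1% oxygen) for 4 h in darkness at 23 °C, giving 6 groups of 2 arrays, and nothing in the labels ties the replicates to separate plantings, so p-values measure the spread between these arrays.

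Plants sense low oxygen through transcription factors of the group VII ethylene response factor family, to which HRE1 and HRE2 belong. In air, the amino-terminal cysteine of these factors is oxidised and the protein is degraded, whereas in hypoxia the factors persist and promote transcription of a core set of genes found across tissues. That core set includes enzymes of fermentation as well as many small or poorly described proteins.

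Array medians ran from 32.7 to 35.7 in intensity, and 2 arrays a group limit the precision of what follows. On the 4 arrays of replicate 1 in WT and in HRE1ox, air and hypoxia, the 5′ probe set of the ThrX control RNA read log2 7.17 to 7.48, against 3.63 to 4.15 on the other 8. The 3′ minus 5′ difference of the Athal GAPDH pair was also smaller on those 4 arrays, at 1.88 to 2.20 against 2.41 to 2.94. The other GAPDH pair did not separate the arrays in this way. Its 3′ and 5′ levels were 12.64 and 12.31 on replicate 1 of WT hypoxia and 11.95 and 11.64 on replicate 2. Replicate 2 of WT air has an ecotype label that names 35S::HRE2 while its title says WT, and it was grouped by its title. Without that array the same rule gave 31 members, all among the 33. HRE1 and HRE2 had no assigned probe set, so the transgenes were not analysed here. Of 10 listed root markers 3 were tested, EXPA7, EXPA18 and AT1G30870, and all 3 read lower in hypoxia in every genotype. The hypoxia means of EXPA7 and EXPA18 were under log2 4, near background, in every genotype. Those of AT1G30870 were 5.69 in WT, 5.71 in HRE1ox and 5.41 in HRE2ox. In WT air the means were log2 8.11 for AT1G30870, 5.68 for EXPA18 and 4.11 for EXPA7, so a sum of their intensities reflects mainly AT1G30870. The summed intensity of the 3 root markers was 313 to 377 in WT air and 61.8 to 65.3 in WT hypoxia. It was 470 to 475 in HRE1ox air and 64.6 to 68.2 in HRE1ox hypoxia, and 194 to 216 in HRE2ox air and 51.7 to 54.8 in HRE2ox hypoxia. RCA, the Rubisco activase of green tissue and the single green marker tested, stayed between 13.87 and 14.08 in group mean. In whole seedlings, fewer cells of a type and less RNA per cell cannot be told apart, and the part of either in the members' levels was not tested.

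The median member read 3.50 in WT air and 6.64 in WT hypoxia. In HRE1ox the same medians were 3.31 and 7.12, and in HRE2ox they were 3.16 and 6.42. Ranked among all 22746 probe sets, the median member stood at percentile 38.5 in WT air and 64.3 in WT hypoxia. The corresponding percentiles were 36.1 and 69.7 in HRE1ox and 35.0 and 62.0 in HRE2ox. For every one of the 33, the lowest of the 6 hypoxia arrays lay above the highest of the 6 air arrays. The rule sets no lowest hypoxia level, and 18 of the 33 had means of log2 6 or more in all 3 hypoxia groups. The lowest hypoxia means were 4.81 in WT, 4.78 in HRE1ox and 4.98 in HRE2ox. Those levels describe the choice of members and are not tested here. Of the 33, 23 had air means under log2 4 (an intensity of 15, the filter level near background) in all 3 genotypes. The sizes of their hypoxia-minus-air differences are therefore uncertain. The same differences chose the members, so those near the limit of the rule may be too large and are not read as lower bounds. The 5 with air means at or above log2 4 in every genotype were AT1G72940, 264647_at, 258941_at, 250781_at and 248160_at.

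**Figure D1:**
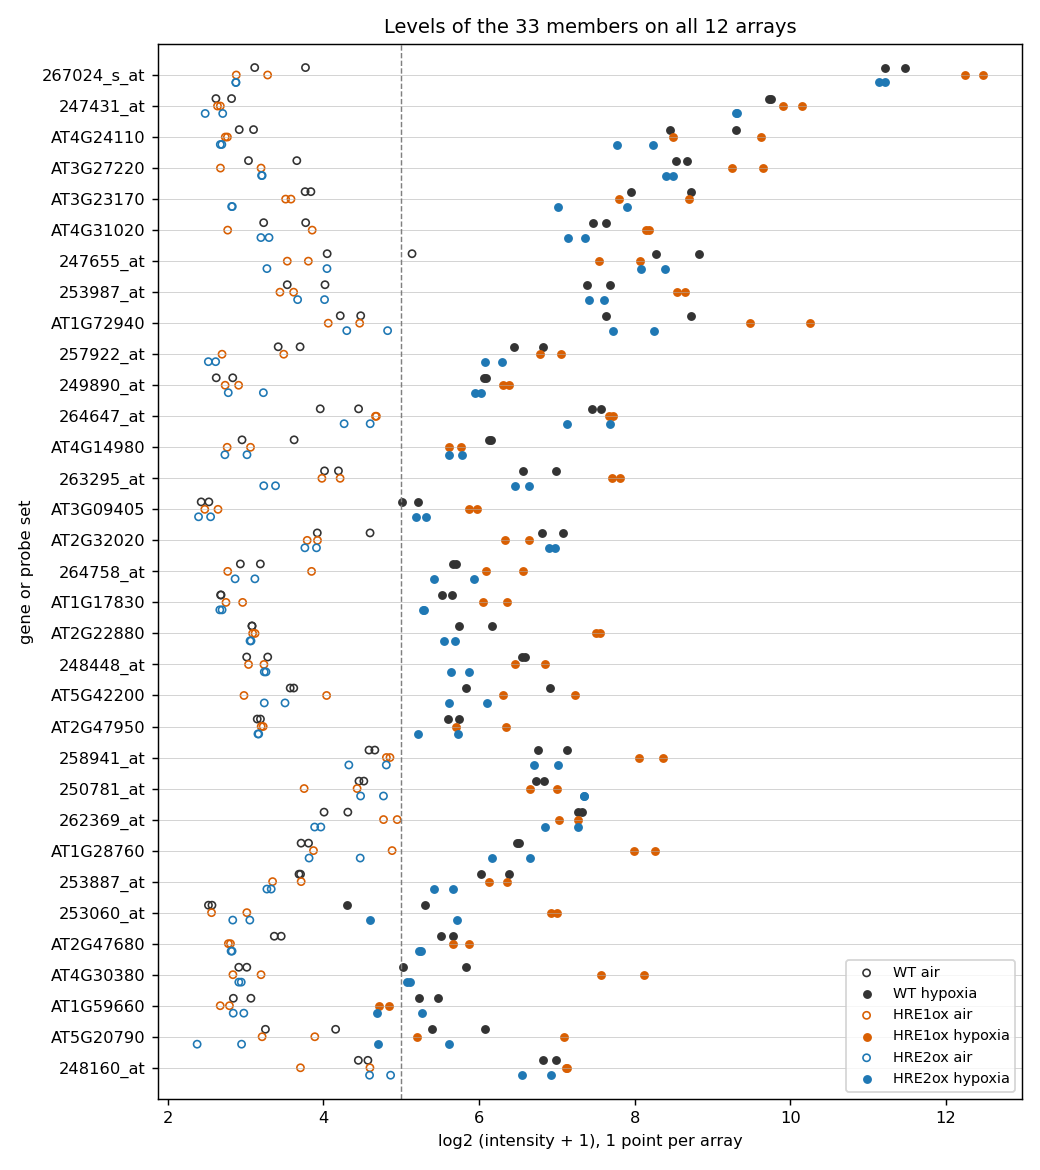
Level of each of the 33 members on all 12 arrays, as log2 (intensity + 1), 1 point per array, with open points for air, filled points for hypoxia and the dashed line at the air limit of log2 5. For every member all 6 filled points lie to the right of all 6 open points, and the members are ordered from the largest to the smallest of their lowest difference among the genotypes.

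The size of the change varied widely among the members. In WT the hypoxia-minus-air difference ran from 2.03 to 7.90 with a median of 2.85, where the median over all probe sets was -0.0085. It ran from 2.05 to 9.28 in HRE1ox, with a median of 3.51, and from 2.01 to 8.30 in HRE2ox, with a median of 2.78. The smallest of a member's 3 differences was between 2 and 3 for 23 members, from 3 to under 4 for 4, from 4 to under 6 for 4, and 6 or more for 2. Among the 13687 probe sets tested with limma, hypoxia against air was called higher (adjusted p under 0.05) for 3.31% in WT, 5.31% in HRE1ox and 3.38% in HRE2ox, and lower for 3.27%, 7.08% and 3.58%. Those shares are given as background only, because the same contrasts chose the members. All 33 passed the test's filter, and 10 of them would have passed it on the air arrays alone.

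Both of the members with the largest smallest difference are without an assigned gene. In air, 267024_s_at read 3.77 and 3.12 in WT, 2.88 and 3.28 in HRE1ox, and 2.87 and 2.88 in HRE2ox. In hypoxia it read 11.48 and 11.21 in WT, 12.48 and 12.25 in HRE1ox, and 11.21 and 11.14 in HRE2ox. It was the single member above log2 10 in all 3 hypoxia groups, going in WT from intensities of 12.6 and 7.68 to 2848 and 2375. The suffix of its identifier marks a probe set whose probes can match more than 1 transcript, so its signal may combine related transcripts.

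Probe set 247431_at read between 2.48 and 2.82 on all 6 air arrays. Its hypoxia levels were 9.75 and 9.72 in WT, 10.14 and 9.91 in HRE1ox, and 9.31 and 9.30 in HRE2ox. The replicate arrays lay close together, and the order of the genotypes was HRE1ox, WT, HRE2ox with no overlap.

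Ranked by the smallest of their 3 differences, the members assigned to genes were led by AT4G24110, AT3G27220, AT3G23170 and AT4G31020. AT4G24110 read 3.10 and 2.92 in WT air, 2.74 and 2.77 in HRE1ox air, and 2.69 and 2.67 in HRE2ox air. In hypoxia it read 9.30 and 8.45 in WT, 9.62 and 8.49 in HRE1ox, and 7.77 and 8.24 in HRE2ox. Its WT and HRE1ox hypoxia arrays overlapped, with replicate 1 the higher array in both groups and the lower in HRE2ox.

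AT3G27220, which encodes a kelch-repeat protein of the galactose oxidase superfamily, read from 2.68 to 3.66 over the 6 air arrays. Its hypoxia arrays gave 8.53 and 8.68 in WT, 9.65 and 9.25 in HRE1ox, and 8.49 and 8.40 in HRE2ox. Both HRE1ox arrays lay above the other 4, and its difference of 0.84 ± 0.24 (SE) from WT in hypoxia had an adjusted p of 0.232.

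AT3G23170 read 3.84 and 3.76 in WT air, 3.58 and 3.51 in HRE1ox air, and 2.82 and 2.83 in HRE2ox air. In hypoxia the levels were 8.73 and 7.95 in WT, 8.69 and 7.80 in HRE1ox, and 7.02 and 7.90 in HRE2ox. Replicate 1 was again the higher array in WT and HRE1ox and the lower in HRE2ox, and WT and HRE1ox overlapped.

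AT4G31020, a member of the alpha/beta-hydrolase superfamily, read from 2.77 to 3.86 in air. In hypoxia it gave 7.62 and 7.46 in WT, 8.18 and 8.15 in HRE1ox, and 7.36 and 7.15 in HRE2ox. Its 2 HRE1ox hypoxia arrays stood above the other 4, by less than the test could call (0.62 ± 0.31 against WT, adjusted p = 0.725).

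The remaining 4 of the 10 members with the largest smallest difference included 3 without an assigned gene. Probe set 247655_at read 5.14 and 4.05 in WT air, 3.81 and 3.54 in HRE1ox air, and 3.27 and 4.05 in HRE2ox air. Its hypoxia arrays gave 8.83 and 8.28 in WT, 8.07 and 7.54 in HRE1ox, and 8.08 and 8.39 in HRE2ox. It is 1 of 4 members whose smallest difference lay from 3 to under 4, and its HRE1ox hypoxia arrays were both below WT, with a difference of -0.75 ± 0.38 (adjusted p = 0.741). AT1G72940, annotated as a TIR-NBS class protein of the plant immune receptor type, read 4.22 and 4.48 in WT air, 4.06 and 4.47 in HRE1ox air, and 4.82 and 4.30 in HRE2ox air. In hypoxia it read 7.63 and 8.73 in WT, 9.49 and 10.25 in HRE1ox, and 8.25 and 7.72 in HRE2ox. Its HRE1ox hypoxia arrays lay above all others, but the WT arrays were more than 1 log2 unit apart, and the difference from WT of 1.69 ± 0.39 had an adjusted p of 0.113. Probe set 257922_at went from 2.52 to 3.70 over the air arrays to 6.45 and 6.82 in WT hypoxia, 7.06 and 6.78 in HRE1ox hypoxia, and 6.29 and 6.07 in HRE2ox hypoxia. The last of the 10, 253987_at, is described with the members that were called between genotypes.

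The size of the change also differed between genotypes within a member. The largest of its 3 differences fell in HRE1ox for 27 members, in WT for 4 and in HRE2ox for 2. The smallest fell in HRE2ox for 19, in WT for 10 and in HRE1ox for 4. Averaged over the 33 members, the level was 6.89 and 6.89 on the WT hypoxia arrays, 7.55 and 7.31 on the HRE1ox hypoxia arrays and 6.64 and 6.61 on the HRE2ox hypoxia arrays. In air the same average was 3.61 and 3.46 in WT, 3.49 and 3.40 in HRE1ox and 3.34 and 3.34 in HRE2ox. Averaged this way, HRE1ox hypoxia was the highest group and HRE2ox hypoxia the lowest of the 3, without overlap between their arrays. The members differ in level and share arrays, so no test was made on this average.

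Overexpression of HRE1 was compared with WT in hypoxia in a limma fit of all 6 groups, with p-values adjusted over the 13687 tested probe sets. Of the 33 members, 7 were called higher in HRE1ox and 0 lower, where the shares over all tested probe sets were 0.511% higher and 0.329% lower. The difference was positive for 27 members, and its median was 0.35 against -0.0086 over all tested probe sets. At an unadjusted p under 0.05 there were 13, of which 12 were higher in HRE1ox, where 7.93% of all tested probe sets passed in either direction. Both HRE1ox arrays lay above both WT arrays for 18 members and below them for 5, where the shares over all tested probe sets were 14.9% and 16.1%. The called members were AT2G22880, AT4G30380, AT3G09405 and the unassigned 253060_at, 258941_at, 253987_at and 263295_at. The count fell to 2 without either WT hypoxia array or either HRE1ox hypoxia array, to 3 without either HRE2ox air array and to 4 without either HRE2ox hypoxia array. It was 5 without any of the others, which include the WT air array with the conflicting label. Fitted to the 4 arrays concerned and no others, limma called 0.

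AT2G22880, which encodes a VQ-motif protein of a family that partners WRKY transcription factors, was almost level in air. It read 3.08 and 3.08 in WT, 3.09 and 3.12 in HRE1ox, and 3.06 and 3.07 in HRE2ox. Under hypoxia its values were 5.74 and 6.16 in WT, 7.50 and 7.56 in HRE1ox, and 5.69 and 5.54 in HRE2ox. Both HRE1ox arrays stood clear of the other 4, with a difference of 1.58 ± 0.15 from WT (adjusted p = 0.00248). The call held without any single array, with adjusted p from 0.00677 to 0.0286.

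AT4G30380, for which RefSeq lists the synonym EXLB2 (an expansin-like protein, from a family related to proteins that loosen cell walls), showed the largest difference of any member. Its air levels were 2.91 and 3.02 in WT, 2.84 and 3.20 in HRE1ox, and 2.91 and 2.94 in HRE2ox. Its hypoxia levels were 5.03 and 5.83 in WT, 8.12 and 7.57 in HRE1ox, and 5.12 and 5.07 in HRE2ox. The HRE1ox arrays lay above every other array, and the difference from WT was 2.42 ± 0.26 (adjusted p = 0.00509). It too kept its call without any single array, with adjusted p from 0.0078 to 0.0341.

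AT3G09405, which encodes a pectin acetylesterase family protein (enzymes that act on cell wall pectin), read from 2.40 to 2.65 on the air arrays. In hypoxia it read 5.01 and 5.21 in WT, 5.87 and 5.97 in HRE1ox, and 5.18 and 5.32 in HRE2ox. The difference of HRE1ox from WT was 0.81 ± 0.13 (adjusted p = 0.0303), and 10 of the 12 fits that left out 1 array lost the call.

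Probe set 253060_at read from 2.52 to 3.05 in air. Its hypoxia arrays were 4.31 and 5.31 in WT, 7.00 and 6.92 in HRE1ox, and 5.72 and 4.60 in HRE2ox. The HRE1ox arrays were 2.15 ± 0.38 above WT (adjusted p = 0.0413), although the replicates of WT and of HRE2ox each spread by about 1 log2 unit. Probe set 258941_at had air levels of 4.66 and 4.59 in WT, 4.81 and 4.86 in HRE1ox, and 4.81 and 4.33 in HRE2ox, among the highest of the members. Its hypoxia levels were 6.75 and 7.13 in WT, 8.06 and 8.36 in HRE1ox, and 7.02 and 6.71 in HRE2ox. It was 1.27 ± 0.20 higher in HRE1ox than in WT (adjusted p = 0.0264).

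Probe set 253987_at read 4.02 and 3.54 in WT air, 3.62 and 3.44 in HRE1ox air, and 4.01 and 3.67 in HRE2ox air. Hypoxia gave 7.68 and 7.39 in WT, 8.64 and 8.54 in HRE1ox, and 7.60 and 7.42 in HRE2ox. WT and HRE2ox overlapped while HRE1ox lay 1.05 ± 0.20 above WT (adjusted p = 0.0493). Probe set 263295_at read 4.01 and 4.19 in WT air, 3.98 and 4.21 in HRE1ox air, and 3.38 and 3.23 in HRE2ox air. In hypoxia it read 6.57 and 6.99 in WT, 7.70 and 7.81 in HRE1ox, and 6.65 and 6.46 in HRE2ox, a difference of 0.98 ± 0.17 between HRE1ox and WT (adjusted p = 0.0373). These calls rested on few arrays: 253987_at and 253060_at each lost the call in 10 of the 12 fits without 1 array, 263295_at in all 12 and 258941_at in 4.

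**Figure D2:**
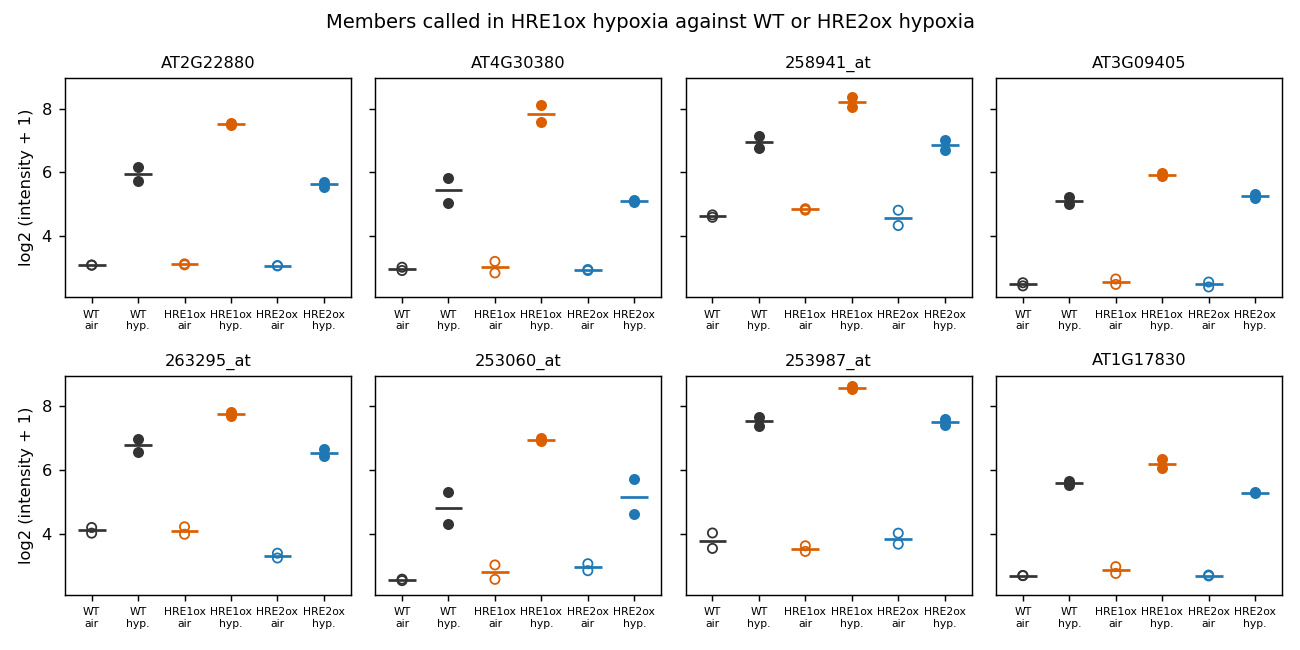
Levels of the 8 members called higher in HRE1ox hypoxia than in WT or HRE2ox hypoxia, as log2 (intensity + 1), with 1 point per array and a bar at the mean of each group of 2. In every panel both HRE1ox hypoxia points lie above the WT and HRE2ox hypoxia points, and the air groups of AT2G22880 lie between 3.06 and 3.12.

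Other members differed from WT by as much without being called. AT1G28760 read 3.71 and 3.81 in WT air, 3.87 and 4.88 in HRE1ox air, and 4.47 and 3.82 in HRE2ox air. Its hypoxia levels were 6.49 and 6.51 in WT, 7.99 and 8.27 in HRE1ox, and 6.66 and 6.17 in HRE2ox. The HRE1ox hypoxia arrays lay well above the other 4, and the difference from WT was 1.63 ± 0.33 with an adjusted p of 0.0666. The abundant 267024_s_at was 1.02 ± 0.22 higher in HRE1ox (adjusted p = 0.0966).

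The 6 members with a negative difference included AT1G59660, AT2G32020 and AT4G14980. AT1G59660, annotated as a nucleoporin of the nuclear pore, read from 2.67 to 3.07 in air. Its hypoxia arrays gave 5.22 and 5.47 in WT, 4.72 and 4.84 in HRE1ox, and 4.69 and 5.26 in HRE2ox. Both HRE1ox arrays were below both WT arrays, by -0.56 ± 0.19, and the adjusted p was 0.38.

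AT2G32020, of the acyl-CoA N-acyltransferase superfamily, read 4.60 and 3.92 in WT air and from 3.76 to 3.92 in the lines. Hypoxia gave 7.08 and 6.81 in WT, 6.64 and 6.34 in HRE1ox, and 6.98 and 6.90 in HRE2ox. HRE1ox was the lowest genotype here and its difference from WT was -0.45 ± 0.22 (adjusted p = 0.689). AT4G14980, a Cys/His-rich C1 domain protein, read from 2.73 to 3.62 in air. In hypoxia it gave 6.12 and 6.15 in WT, 5.62 and 5.77 in HRE1ox, and 5.61 and 5.78 in HRE2ox. Both lines lay below WT by similar amounts, and neither difference was called (adjusted p = 0.702 for HRE1ox and 0.613 for HRE2ox).

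Overexpression of HRE2 gave no called member against WT in hypoxia. With limma 0 of 33 were called higher and 0 lower, where the shares over all tested probe sets were 0.0292% and 0.0438%, and at an unadjusted p under 0.05 there were 7, of which 1 was higher (9.05% of all tested probe sets in either direction). The difference was negative for 30 members, with a median of -0.24 against -0.0122 over all tested probe sets. Replicate 1 of WT hypoxia is among the 4 arrays on which the 5′ controls stood apart, and no HRE2ox array is. With those 4 arrays as a block, an alternative chosen after seeing the data, the median was -0.16. The part of that array difference in these values was not tested. Both HRE2ox arrays lay below both WT arrays for 15 members and above them for 1, where the shares over all tested probe sets were 19.5% and 18.3%. Probe set 248448_at, which read 6.59 and 6.55 in WT hypoxia, 6.84 and 6.46 in HRE1ox hypoxia and 5.64 and 5.87 in HRE2ox hypoxia, had the lowest adjusted p, 0.19. Its difference from WT was -0.82 ± 0.17, with a 95% interval from -1.19 to -0.44. The 1 member wholly above WT was 250781_at, at 7.35 and 7.35 in HRE2ox hypoxia, 6.83 and 6.73 in WT hypoxia and 7.00 and 6.65 in HRE1ox hypoxia. The interval of its difference from WT was 0.07 to 1.06 before adjustment (adjusted p = 0.472).

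**Figure D3:**
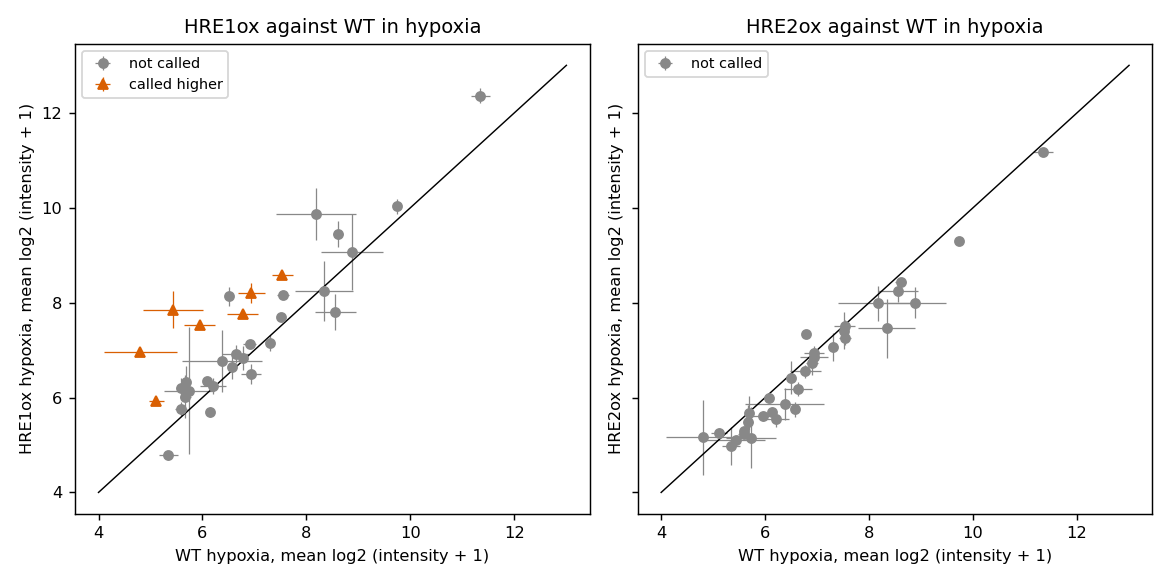
Mean level of each member in WT hypoxia (horizontal axis) against HRE1ox hypoxia (left) or HRE2ox hypoxia (right), in log2 (intensity + 1), with SD bars over 2 arrays and a line of equality. Orange triangles are the 7 members called higher in HRE1ox, which lie above the line, and in the right panel 30 of 33 members lie below it with 0 called.

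Compared directly in hypoxia, 5 members were called higher in HRE1ox than in HRE2ox and 0 lower, where the shares over all tested probe sets were 0.453% and 0.197%. This comparison and that of HRE1ox with WT share the HRE1ox hypoxia arrays, so their calls are not independent. The difference was positive for 28 members with a median of 0.79 (0.0032 over all tested probe sets). With the 4 arrays that stood apart as a block, which include replicate 1 of HRE1ox hypoxia and no HRE2ox array, the median was 0.68. At an unadjusted p under 0.05 there were 21, of which 20 were higher (8.67% of all tested probe sets in either direction). Both HRE1ox arrays lay above both HRE2ox arrays for 23 members and below for 3, where the shares over all tested probe sets were 17.9% and 17.3%. AT4G30380 differed by 2.75 ± 0.26 (adjusted p = 0.0022) and AT2G22880 by 1.91 ± 0.15 (adjusted p = 0.00109), and both kept the call without any single array. Probe sets 258941_at and 263295_at differed by 1.35 ± 0.20 (adjusted p = 0.0238) and 1.21 ± 0.17 (adjusted p = 0.017), and each lost the call in 4 of the 12 fits without 1 array. The count was 2 without replicate 1 of HRE1ox hypoxia or without either HRE2ox hypoxia array, and 3 without replicate 2 of HRE1ox hypoxia. Fitted to the 4 arrays concerned and no others, limma called 0.

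The fifth called member was AT1G17830, annotated only as a protein of unknown function. In air it read from 2.67 to 2.96. Its hypoxia levels were 5.65 and 5.53 in WT, 6.35 and 6.05 in HRE1ox, and 5.28 and 5.30 in HRE2ox. The 3 genotypes did not overlap, and HRE1ox exceeded HRE2ox by 0.92 ± 0.14 (adjusted p = 0.0238). The call was lost in 5 of the 12 fits without 1 array, and with trend and robust variances (adjusted p = 0.0524).

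Whether the hypoxia-minus-air difference itself changed with genotype was asked with an interaction. The rule requires a difference of at least 2 in every genotype, so it bounds these values from below. For the 23 members with air means under log2 4 an interaction is uncertain in size. Probe sets with a small difference in any genotype were left out by the rule. The counts below are therefore a description and do not compare directly with the shares over all tested probe sets. For HRE1ox against WT, 1 member was called larger and 0 smaller, where the shares over all tested probe sets were 0.0511% and 0.0292%, and 13 members passed an unadjusted p under 0.05 (5.57% of all tested probe sets), of which 12 were larger. That member was AT2G22880, with an interaction of 1.56 ± 0.21 (adjusted p = 0.049). Its air levels were near background in both genotypes, so this value adds nothing to the difference of 1.58 between their hypoxia levels. The call was lost in all 12 fits without 1 array, with adjusted p from 0.0566 to 0.206. For HRE2ox against WT, limma called 0 members in either direction, where the shares were 0.0219% and 0.00731%, and 2 members passed an unadjusted p under 0.05 (2.59% of all tested probe sets).

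In air the rule held every member's group means under log2 5, and 23 members had air means under log2 4 in every genotype. Only 10 members would have passed the filter on the air arrays alone. Tests between genotypes in air therefore used values that chose the members, mostly near background, and cannot show whether the genotypes differ there. The air counts are a description and do not compare directly with the shares over all tested probe sets. In these tests limma called none of the members. For HRE1ox against WT, 0 were called higher and 0 lower (0.00731% and 0% of all tested probe sets), with 3 at an unadjusted p under 0.05 (9.78% of all tested probe sets). For HRE2ox against WT, 0 were called higher and 0 lower (0.241% and 0.694%), and 6 passed an unadjusted p under 0.05, all lower in HRE2ox, where 15.2% of all tested probe sets passed in either direction. AT2G47680, which encodes a zinc finger helicase family protein, read 3.46 and 3.37 in WT air, 2.78 and 2.81 in HRE1ox air and 2.81 and 2.83 in HRE2ox air. Both WT air arrays lay above the 4 air arrays of the lines, but all 6 were under log2 4, near background, so no air difference is given. In hypoxia AT2G47680 read 5.51 and 5.67 in WT, 5.87 and 5.66 in HRE1ox, and 5.25 and 5.22 in HRE2ox.

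Replicate arrays of some members were far apart. The highest SD of any member was 1.34, for AT5G20790 in HRE1ox hypoxia. AT5G20790 read 4.16 and 3.25 in WT air, 3.89 and 3.21 in HRE1ox air, and 2.38 and 2.95 in HRE2ox air. In hypoxia it gave 6.07 and 5.39 in WT, 7.09 and 5.20 in HRE1ox, and 4.70 and 5.61 in HRE2ox. The genotypes overlapped in hypoxia, and replicate 1 was higher in WT and HRE1ox but lower in HRE2ox.

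The same order held for AT5G42200, which encodes a RING finger protein of the kind that includes ubiquitin ligases. It read from 2.98 to 4.04 in air. Its hypoxia levels were 6.91 and 5.84 in WT, 7.24 and 6.31 in HRE1ox, and 5.62 and 6.10 in HRE2ox. With AT4G24110, AT3G23170, AT5G20790 and 247655_at, it was 1 of 5 members at least 0.5 higher on replicate 1 in both WT and HRE1ox hypoxia. All 5 were lower on replicate 1 in HRE2ox hypoxia. AT1G72940 was the 1 member at least 0.5 lower on replicate 1 in both groups, at -1.09 in WT and -0.76 in HRE1ox. Over all tested probe sets those shares were 6.21% and 3.1%. The replicate 1 arrays of WT and HRE1ox are those on which the 5′ control probe sets stood apart, and the part of that in these members was not tested. None of these 6 was called between genotypes.

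**Figure D4:**
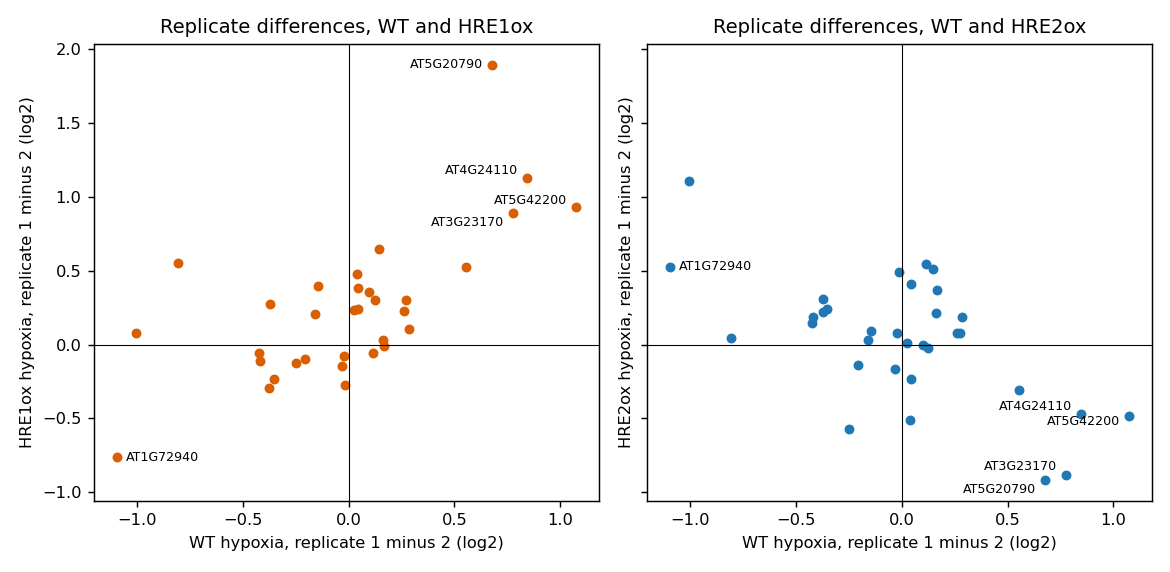
Replicate 1 minus replicate 2 in hypoxia for each of the 33 members, in log2 units, for WT (horizontal axes) against HRE1ox (left) and HRE2ox (right). AT5G20790, AT4G24110, AT5G42200 and AT3G23170 lie at upper right in the left panel and at lower right in the right panel, and AT1G72940 has a WT difference of -1.09.

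The thresholds cut through a continuous range. Just inside the air limit were 262369_at, 258941_at and 248160_at, with highest air means of 4.86, 4.83 and 4.73. Just outside it, with large enough differences, were 248164_at at 5.08, AT1G67920 at 5.19 and 265948_at at 5.20, and 45 probe sets had the required difference but an air mean of 5 or more in at least 1 genotype. Just inside the difference limit were 248160_at, AT5G20790 and AT1G59660, with smallest differences of 2.01, 2.03 and 2.05. Just outside it were AT2G44370 at 1.95, AT5G39580 at 1.86 and 264475_s_at at 1.86. Requiring the limits of every array in place of the group means left 26 of the 33. An air limit of log2 4 left 23 and one of log2 6 gave 48. With a pseudocount of 16 in place of 1 and the same log2 limits the number fell to 8. The larger pseudocount raises low log2 values and shrinks differences, so those limits are stricter there.

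Members near the air limit were read on every array too. Probe set 262369_at read 4.31 and 4.01 in WT air, 4.77 and 4.95 in HRE1ox air, and 3.89 and 3.97 in HRE2ox air. In hypoxia it read 7.32 and 7.28 in WT, 7.27 and 7.03 in HRE1ox, and 7.27 and 6.85 in HRE2ox. Its difference was smallest in HRE1ox, where air was highest, and the interaction of -0.85 ± 0.25 had an adjusted p of 0.476. Probe set 248160_at read 4.45 and 4.57 in WT air, 4.60 and 3.71 in HRE1ox air, and 4.86 and 4.59 in HRE2ox air. Hypoxia gave 6.99 and 6.82 in WT, 7.11 and 7.12 in HRE1ox, and 6.92 and 6.55 in HRE2ox. HRE2ox had its smallest difference, 2.01, close to the limit of the rule.

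The remaining members are given more briefly. AT2G47950 read from 3.15 to 3.23 in air, and in hypoxia 5.74 and 5.59 in WT, 6.34 and 5.70 in HRE1ox, and 5.73 and 5.22 in HRE2ox. Its genotypes overlapped in hypoxia. Probe set 249890_at read from 2.62 to 3.23 in air, and in hypoxia 6.07 and 6.09 in WT, 6.31 and 6.39 in HRE1ox, and 6.02 and 5.94 in HRE2ox. Those groups did not overlap, yet HRE1ox exceeded WT by 0.27 ± 0.16 only (adjusted p = 0.849). Probe set 264647_at read from 3.96 to 4.68 in air and from 7.13 to 7.72 in hypoxia. Probe set 264758_at read from 2.77 to 3.85 in air and from 5.42 to 6.57 in hypoxia, and 253887_at went from 3.27 to 3.71 up to 5.42 to 6.38. Both HRE2ox hypoxia arrays of 253887_at lay below every WT and HRE1ox hypoxia array. Its HRE2ox difference from WT in hypoxia was -0.66 ± 0.18 (adjusted p = 0.273). None of these 5 was called between genotypes.

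The 17 members with a gene were spread over the genome. By RefSeq, chromosomes 1 to 5 held 4, 4, 3, 4 and 2 of them. No 2 were neighbours: the closest pair, AT2G47680 and AT2G47950, lay 35 genes apart, and AT4G30380 and AT4G31020 lay 85 apart.

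A list of 53 core hypoxia genes known from earlier studies had 25 tested genes, and 5 of them were members: AT1G72940, AT3G23170, AT3G27220, AT4G24110 and AT5G42200. Of the 20 tested genes on that list that were not members, 9 were among the names left out, of which 7 had met the thresholds. Of the 20, 19 rose in each genotype, with median differences of 3.76 in WT, 4.33 in HRE1ox and 3.73 in HRE2ox over the 20. The exception was AT3G10020, at 0.23 ± 0.52 in WT (adjusted p = 0.932). No member belonged to the lists for heat shock, mitochondrial and oxidative stress, or calcium signalling, but the names left out held 1, 3 and 1 of their tested genes. Of these, STZ, a zinc finger protein, and CML38, a calmodulin-like protein, met the thresholds and are absent from the members by name alone. Of the tested genes of the 3 lists in WT, 1 of 4, 4 of 7 and 1 of 2 rose. The ethylene and jasmonate lists had no assigned probe set, so these pathways were not analysed here.

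Likeness to the members was ranked among tested probe sets with exactly 1 gene that did not meet the thresholds. The 9 that met them and were left out by name were therefore not ranked. The genes whose pattern over the 12 arrays was most like the mean of the members were AT3G03270, PDC2, AT1G11330, AT1G33055 and AT5G66985. The last of them is among the 17 names left out. PDC2 encodes a pyruvate decarboxylase, the enzyme that opens the ethanol fermentation pathway. Their Pearson correlations with that mean ran from 0.992 for AT5G66985 to 0.997 for AT3G03270 over 12 arrays, which share the same 6 groups, and are given as a description. PDC2 was already present in air, with a mean level of 5.65 in WT air and 10.42 in WT hypoxia, against 3.50 and 6.64 for the median member.

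The HRE1ox-to-WT difference in hypoxia was set beside that of other hypoxia-induced probe sets. Among the 45 with the required difference but a higher air level, 4 were called higher and 0 lower, with a median of 0.50, against 7 higher and a median of 0.35 for the 33 members. Among the 9 left out by name, 2 were called higher and 1 lower, with a median of 0.82. For HRE2ox against WT the medians were -0.17 and -0.03, against -0.24 for the members, with 0 called in each set. For HRE1ox against HRE2ox in hypoxia, 10 of the 45 were called higher, with a median of 0.67. Of the 9, 1 was called higher, with a median of 0.82, against 5 and 0.79 for the 33 members. None was called lower in that comparison. No test of a difference between these sets was made.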

How the data were processed

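Total RNA from whole seedlings was measured on 12 Affymetrix ATH1 arrays. The deposited intensity of each probe set is on a linear scale, and GCRMA is named in the submitters' processing notes; the sources used here state neither its version nor its settings. Values were taken as log2 (intensity + 1). Of 22810 probe sets, 64 controls were left out, and 13687 that reached log2 4 on at least 2 arrays were tested, leaving 9059 untested.

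Arrays were grouped by title. One model of 6 groups was fitted to all 12 arrays with limma 3.58.1 (lmFit and eBayes without trend; R 4.3.3), with 6 residual degrees of freedom. Within each comparison the two-sided p was corrected over every tested probe set by Benjamini-Hochberg, with calls made at an adjusted p under 0.05. SEs are moderated, intervals are 95% and unadjusted, and n is 2 arrays per group. The script was tested on simulated data.

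The members, gene lists and tests were chosen with earlier results of these data known. Hypoxia against air chose the members and is not tested on them. Named were any member, with array values for the 10 largest, those called, those nearest a threshold and up to 10 others; up to 4 called genes per list; and the 5 most similar genes. Genes come from the platform table and RefSeq (TAIR10.1), which was used for names and neighbours only. A planned motif count in promoters was not run, as sequences were not used here. Alternatives were a replicate block, other arrays, centring, filters, variances and pseudocount, and leaving out each array.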

Additional observations from a re-analysis of the deposited data

Results flagged for a closer look

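The interaction of HRE1ox with hypoxia passed the threshold for AT2G22880, at 1.56 ± 0.21 on the log2 scale (1.5553 before rounding; limma adjusted p = 0.049). Its air levels ran from 3.06 to 3.12 on all 6 arrays, near background, and its hypoxia-minus-air differences helped to choose it. The value therefore does not show a difference beyond that between the hypoxia levels, 1.58 ± 0.15. The call was lost in all 12 fits without 1 array and in 7 of the 9 other alternatives.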

How the results depend on the processing

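With 2 arrays per group, calls near the threshold depended on the fit. Members called higher in HRE1ox than in WT in hypoxia numbered 7, and 2 to 5 without 1 array. They numbered 0 on the comparison's arrays alone, and 12 with the 4 arrays that stood apart as a block, an alternative chosen after seeing the data. Against HRE2ox they numbered 5, and 2 to 7 without 1 array, 0 on those arrays alone, 14 with pseudocount 16 and 15 with that block. Over all tested probe sets, HRE1ox against WT in hypoxia had 115 calls, 382 with that block and 0 on the comparison's arrays alone.

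The HRE1ox interaction, 1 member, fell to 0 without any 1 array, with the replicate block over 12 arrays, on the comparison's arrays alone, with centring, without a filter, with a filter at log2 6, with trend and robust variances and with pseudocount 16. It was 2 with the replicate block in 8 arrays and 4 with the 4 arrays as a block. HRE2ox minus WT, 0 in the reported fit, became 1 (lower) in hypoxia with the 4 arrays as a block; in air it became 1 (lower) without a filter and 2 (lower) with that block. HRE1ox minus WT in air became 1 (lower) with that block. These counts, and that of the HRE2ox interaction, stayed at 0 in all fits without 1 array. The number of members was 8 with pseudocount 16 and unchanged log2 limits, and 31 to 34 without 1 array.

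With the replicate block, HRE1ox against WT in hypoxia had 6 members over 12 arrays and 9 over 8. The labels give replicate numbers and do not say that they pair arrays. Replicate differences correlated at 0.67 to 0.75 among the WT and HRE1ox groups, at -0.58 to -0.24 between these and the HRE2ox groups, and at 0.35 between the HRE2ox groups. No difference called in the reported fit changed sign under any alternative, and the signs of the uncalled ones were not checked. Many of the alternatives leave the difference itself as it was and alter only its SE or adjusted p, so its sign could not change there. The cause of the changes in the counts was not tested.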
